A study of Mus musculus with 14 samples.

Results

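The genes described here carry out and time cell division: the cyclins and kinase that drive cells into mitosis, the kinases and checkpoint proteins that police it, the motors and filament-binding proteins of the spindle, the kinetochore, the condensins and the machinery of cytokinesis. They were chosen as a list of 45 symbols, and each was read from the array probe set that the platform's annotation gives to that gene alone. Where a gene had several such probe sets the one with the highest mean was taken. This gave a level for 41 of the 45, out of 18820 genes measured in this way. Ube2c, Kif20a and Nusap1 were listed only in probe sets shared with another gene, and no probe set was listed for Ccnb1, so these 4 are not described.

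Expression was measured in mouse organoids, which are epithelial cultures grown from glands, crypts or single stem cells, and in stem cells (SCs) sorted from organoids, on 14 Affymetrix arrays of 1 sample each. Sorted cells were Lgr5-EGFP-high and came from clonal organoids grown in stomach (Sto) medium. They comprised Cdx2null SI SCs (n = 2), from small intestinal (SI) cultures in which 4-hydroxytamoxifen had activated the Lgr5-driven CreERT2 to delete Cdx2, the control Sto SCs of Cdx2-/fl stomach cultures (n = 2) and the control SI SCs of Cdx2-/fl intestinal cultures (n = 3), which had no 4-hydroxytamoxifen. Whole organoids were Cdx2-/fl. Of the stomach cultures (Sto organoids), 2 were in SI medium and 1 was in Sto medium, and of the intestinal cultures (SI organoids), 3 were in SI medium and 1 was in Sto medium. By their labels all carried the Lgr5-EGFP allele and lacked 1 copy of Cdx2, so the controls were not wild type. The paper's text, however, describes its array organoids as cultures of wild-type stomach glands and intestinal crypts. SI medium (ENR) held Egf, Noggin and R-spondin1, and Sto medium (ENRWfg) added Wnt3a, Fgf10 and gastrin. The samples were called independent in the methods, but not said to come from separate animals, so p-values measure the spread between these samples, which may be technical.

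A dividing cell makes the proteins of mitosis in a single burst late in its cycle and destroys many of them at the end of it. Cdk1 bound to A- and B-type cyclins starts mitosis, the spindle of microtubules pulls the chromosomes apart by their kinetochores, and the anaphase-promoting complex, activated by Cdc20, ends it by marking the cyclins for destruction. In the gut epithelium division is confined to stem cells and their early progeny, and differentiated cells switch these genes off together.

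Several arrays stood apart and bear on what follows. The library labelled SI organoids in SI medium 1 had a level of Cdx2, the intestinal transcription factor, of 5.52 on the log2 scale, against 9.92 and 9.67 in the others of its group, and a mean of 8.90 over 8 gastric pit and neck genes, where the lowest of its group was 4.32, so it went against its label. Sto organoids in Sto medium had 4.57 for Cdx2 and 8.51 for those genes. Whether the label is right was not tested, and comparisons count the array as labelled unless it is left out. Cdx2 was at 8.41 and 4.88 in the 2 Cdx2null SI SCs arrays and at 8.94 to 10.05 in control SI SCs. The paper states that the array's Cdx2 probe sets cover every exon, with the part that remains in Cdx2null cells. A high level therefore does not by itself show that Cdx2 was kept, and the paper genotyped the cultures repeatedly. Control Sto SCs were at 5.08 and 4.67, and why the 2 Cdx2null SI SCs arrays differed was not tested. The third array of each of 2 groups, SI organoids in SI medium and control SI SCs, had been exported differently, with an upper quartile of 7.57 in the organoids and 7.50 in the SCs, against 7.79 to 7.90 on the other arrays. The means of the marker lists of mesenchyme, immune cells and endothelium lay between 3.81 and 5.26 in every group, but single markers were higher. Cd68, the macrophage marker, was at 10.26 and 10.36 in control Sto SCs and from 8.51 to 9.18 on the other sorted arrays, and rose in control Sto SCs relative to control SI SCs (1.72, adjusted p = 0.00374) and relative to Sto organoids in SI medium (2.66, adjusted p = 0.0481). In SI organoids in SI medium Lyz2 reached 8.50 and Vim 7.71. The part of these markers in the results on the mitosis genes was not tested.

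Over the 14 arrays the mitosis genes behaved as a block with a single break. Their mean level lay between 8.05 and 9.30 on 12 arrays, and was 5.60 and 6.37 on the 2 arrays of Sto organoids in SI medium. On each of the other 12 arrays 0 of the 41 genes lay below the median of all genes, whereas 23 and 16 of them did in Sto organoids in SI medium 1 and 2. For 40 of the 41 genes both of these arrays were lower than every one of the other 12, against 8.26% of all genes. Smc4, a condensin subunit, was the exception.

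**Figure D1:**
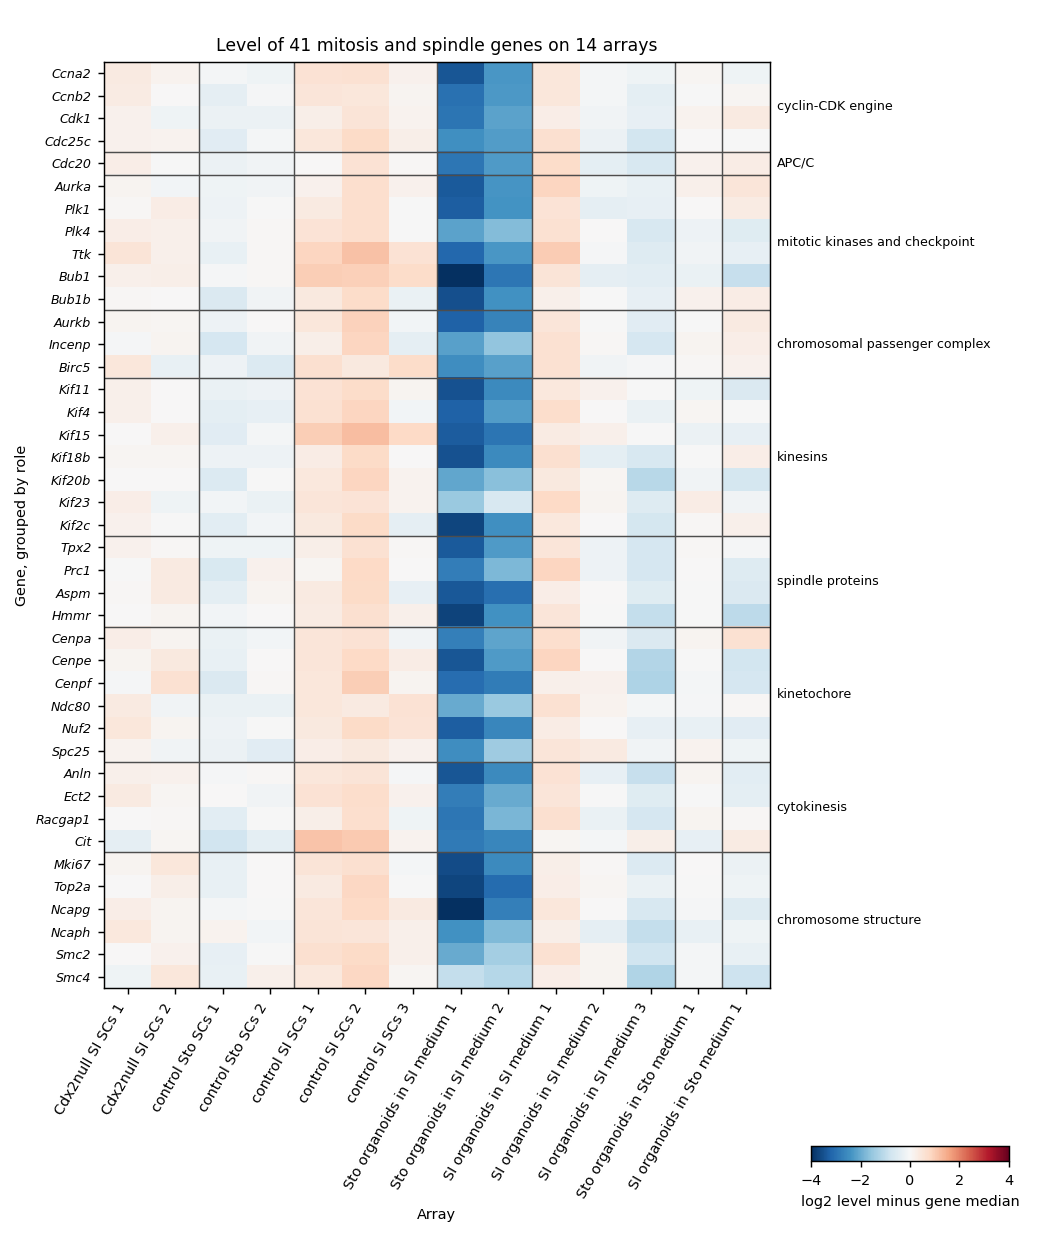
Level of each of the 41 mitosis and spindle genes (rows, grouped by role) on each of the 14 arrays (columns, grouped by sample group), as the log2 level minus the gene's median over the 14 arrays. Blue is lower and red is higher. The 2 columns of Sto organoids in SI medium are the blue ones in nearly every row, with Smc4 and Kif23 palest.

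Because the genes moved together, their promoters are shown first. Genes of late cell division in mammals often carry a cell cycle genes homology region (CHR) at the start site, which is read by MuvB-containing complexes that repress them in resting cells and activate them in dividing ones, and CCAAT boxes upstream, which NF-Y binds. RefSeq promoters (assembly GRCm38.p6, from 250 bases before to 50 after the start) were at hand for 38 of the 45 genes, some with more than 1 start, giving 40 promoters. The letters TTTGAA or TTCGAA, on either strand, occurred in 80.0% of them, against 19.2% of all 32851 mouse promoters in the same table. CCAAT, on either strand, occurred in 72.5% against 37.4%, and both together in 67.5% against 7.5%. A CHR match that began between 50 bases before and 44 after the start was present in 30 of the 40 promoters and in 5.3% of all promoters. Below are the last 120 bases before the start and the first 50 after it for 5 genes, with the CHR and CCAAT letters of either strand in capitals. Of these, 4 (Bub1, Cdk1, Plk1 and Kif11) were over 2-fold higher in control Sto SCs than in Sto organoids in SI medium. Kif23 differed least between those groups. They lie at chr2:127831810-127831979 (minus strand), chr10:69352863-69353032 (minus), chr7:122159315-122159484 (plus), chr19:37376262-37376431 (plus) and chr9:61946750-61946919 (minus).
Bub1: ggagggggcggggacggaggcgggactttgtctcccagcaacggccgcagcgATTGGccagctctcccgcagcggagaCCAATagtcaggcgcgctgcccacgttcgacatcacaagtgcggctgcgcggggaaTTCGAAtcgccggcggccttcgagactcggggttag
Cdk1: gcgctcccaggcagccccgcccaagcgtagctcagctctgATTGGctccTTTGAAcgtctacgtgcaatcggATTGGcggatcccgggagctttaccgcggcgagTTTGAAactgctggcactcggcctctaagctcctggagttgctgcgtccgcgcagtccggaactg
Plk1: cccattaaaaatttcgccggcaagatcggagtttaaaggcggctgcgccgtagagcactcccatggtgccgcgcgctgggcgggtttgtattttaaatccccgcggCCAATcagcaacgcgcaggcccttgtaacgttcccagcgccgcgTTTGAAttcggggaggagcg
Kif11: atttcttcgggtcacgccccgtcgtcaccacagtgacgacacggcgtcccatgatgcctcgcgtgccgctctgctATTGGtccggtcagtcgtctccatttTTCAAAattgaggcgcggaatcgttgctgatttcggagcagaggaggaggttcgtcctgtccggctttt
Kif23: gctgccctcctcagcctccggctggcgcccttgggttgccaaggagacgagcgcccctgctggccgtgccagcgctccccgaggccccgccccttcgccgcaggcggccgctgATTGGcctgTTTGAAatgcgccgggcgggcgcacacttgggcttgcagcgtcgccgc
Both motifs stood close together in the Kif23 promoter, with the CCAAT box 7 bases before the start and the CHR 2 bases after it. No match of either motif was found in the windows of Birc5, Cit, Ncaph, Nuf2, Nusap1 and Plk4. A match describes the letters and is not evidence of binding, and no match says nothing of the factor.

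**Figure D2:**
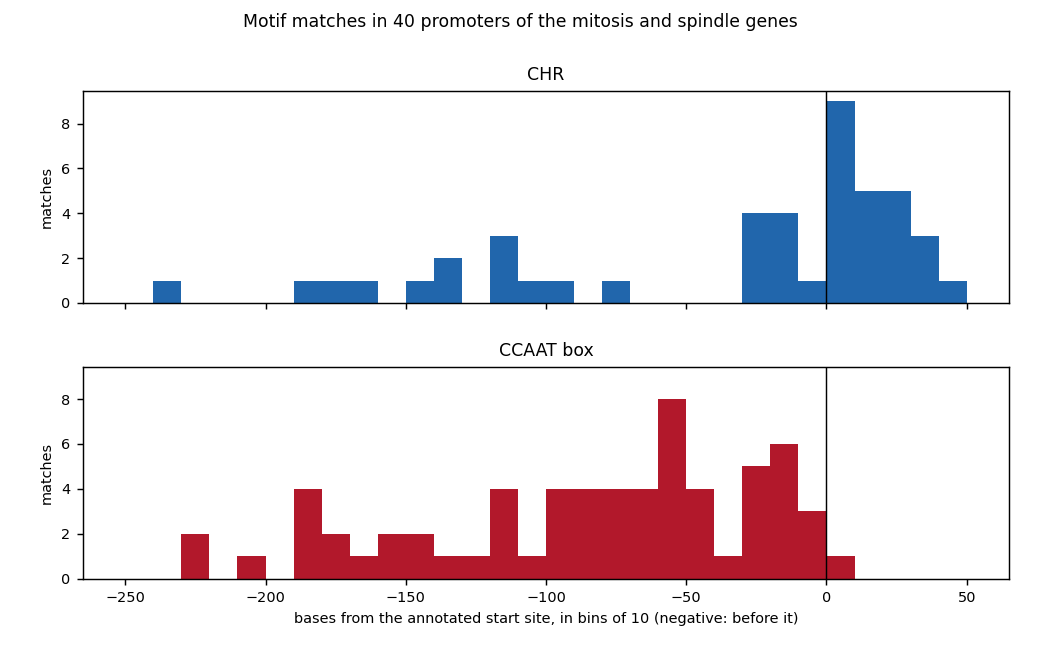
Number of motif matches (vertical axis) by their distance in bases from the annotated start site (horizontal axis, bins of 10 bases, negative before the start) in the 40 promoters, for the CHR (top) and the CCAAT box (bottom). CHR matches gather around the start, with 30 of the 40 promoters holding one between 50 bases before and 44 after it, and CCAAT boxes lie mostly before it.

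The first question was how sorted stem cells compared with whole organoids of the same origin once the organoids had been put in SI medium. In the paper this is the growth medium of intestinal organoids, and for stomach organoids one that allows gastric differentiation. The paper also states that control Sto SCs need Wnt, Fgf and gastrin together to grow, which SI medium did not hold. The part of this in the levels below was not tested. In stomach cultures the mitosis genes were far higher in the sorted cells: 36 of 41 rose in control Sto SCs relative to Sto organoids in SI medium, 0 fell, and the median difference was 2.59 on the log2 scale, with a range of 0.89 to 3.69. Of all genes, 3.74% rose in this comparison, and the median difference of all genes was -0.01. Rose and fell are used of genes that differed at least 2-fold with an adjusted p below 0.05 in limma, adjusted by Benjamini-Hochberg over all 18820 genes. Sorting and medium both differ between these groups. By the paper's account so does the start of the cultures, from single cells for the sorted and from glands for the whole organoids. In bulk RNA fewer cells of a type and less RNA per cell cannot be told apart.

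Mki67, the antigen of cycling cells known as Ki-67, had levels of 9.95 and 10.26 in control Sto SCs, against 6.67 and 7.70 in Sto organoids in SI medium. That is 10.10 ± 0.22 and 7.18 ± 0.73 (SD, n = 2 each), a 7.57-fold difference (log2 difference 2.92, SE 0.38, adjusted p = 0.00274). Top2a, the topoisomerase that untangles sister chromatids, was at 9.59 and 9.90 in control Sto SCs, against 6.22 and 6.83 in Sto organoids in SI medium (9.33-fold, 3.22, SE 0.30, adjusted p = 0.000589). For both genes the groups did not overlap, and the organoid arrays lay further apart from each other than the sorted ones. The number of members called fell to 19 of 41 without Sto organoids in SI medium 1 (1.25% of all genes called higher) and to 21 without control Sto SCs 2 (1.48% of all genes).

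Among the cyclins and their kinase all 4 measured genes rose. Cdk1 was at 10.25 and 10.25 in control Sto SCs, against 7.58 and 8.36 in Sto organoids in SI medium (4.86-fold, 2.28, SE 0.28, adjusted p = 0.00217). Ccna2 and Ccnb2, the A and B cyclins that bind it, differed by 2.77 and 2.44, and Cdc25c, the phosphatase that activates Cdk1-cyclin B, by 2.08. Cdc20, the activator of the anaphase-promoting complex, rose by 2.39 (adjusted p = 0.00905).

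All 6 mitotic kinases and checkpoint genes rose as well. Plk1, the polo-like kinase of mitotic entry and spindle assembly, stood at 10.16 and 10.37 in control Sto SCs, against 7.08 and 7.99 in Sto organoids in SI medium (6.65-fold, 2.73, SE 0.37, adjusted p = 0.00318). Bub1, a spindle checkpoint kinase, showed the largest difference of all members, with 8.75 and 8.86 in control Sto SCs, against 4.31 and 5.93 in Sto organoids in SI medium (12.9-fold, 3.69, SE 0.46, adjusted p = 0.00229). Its 2 organoid values were themselves 1.62 apart, the widest gap between these arrays of any member, and even the higher was far below the sorted cells. Its partner Bub1b and the spindle-pole kinase Aurka differed by 2.62 and 2.70, the checkpoint kinase Ttk by 2.59, and Plk4, which starts centriole duplication, by 1.88.

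In the chromosomal passenger complex, which corrects wrong attachments of chromosomes to the spindle, Aurkb and Birc5 rose. Aurkb, its kinase, was at 9.91 and 10.14 in control Sto SCs, against 6.89 and 7.47 in Sto organoids in SI medium (7.20-fold, 2.85, SE 0.37, adjusted p = 0.00272). The scaffold Incenp differed by 1.48 and was not called (adjusted p = 0.094). Of the 7 kinesins, microtubule motors, 5 rose, from Kif4 (2.37) to Kif15 (2.84), with Kif11, the motor that pushes spindle poles apart, at 2.79. Kif20b (1.59, adjusted p = 0.0677) and Kif23, the motor of the central spindle (0.89, adjusted p = 0.266), were not called. The 4 spindle proteins rose: Prc1, which bundles the central spindle, by 2.07, Tpx2, which activates Aurka, by 2.64, Hmmr by 3.01 and Aspm, a spindle-pole protein, by 3.07 (SE 0.36, adjusted p = 0.00153).

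Kinetochore genes rose in 6 of 6 cases. They ran from the Ndc80 complex members Ndc80 (1.48) and Spc25 (1.61) to Nuf2 (2.83), of the same complex, with the centromeric histone Cenpa at 2.24 and the large proteins Cenpf and Cenpe at 2.66 and 2.70. The 4 cytokinesis genes rose too, with Cit and Racgap1 at 2.13, Ect2 at 2.32 and the furrow protein Anln at 2.98 (SE 0.44, adjusted p = 0.00462). In the chromosome structure group 4 of 6 rose, the condensin I subunits Ncapg (3.31, SE 0.42, adjusted p = 0.0024) and Ncaph (2.12) beside Mki67 and Top2a. Smc2 and Smc4, the ATPase core shared by both condensins, differed by 1.51 and 0.99 and were not called (adjusted p = 0.0597 and 0.28).

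In intestinal cultures, 0 of 41 rose or fell in control SI SCs relative to SI organoids in SI medium. Their median difference was 0.42, with a range of 0.05 (Spc25) to 0.98 (Bub1). At an unadjusted p under 0.05 there were 5 of the 41, and 1776 of all 18820 genes. The median was 0.70 without SI organoids in SI medium 1, the library that went against its label, and 0.19 without SI organoids in SI medium 3. Of all genes, 0.159% were called. Mki67 had levels of 10.77, 10.90 and 10.17 in control SI SCs, against 10.49, 10.30 and 9.71 in SI organoids in SI medium, so the groups overlapped. The 4 with the smallest p were Kif15 (0.83, SE 0.18, adjusted p = 0.122), Cit, Ncaph and Nuf2. Without SI organoids in SI medium 1, Ttk (1.14, SE 0.28, adjusted p = 0.0415) and Ncaph (1.06, SE 0.25, adjusted p = 0.0355) rose, against 2.18% of all genes.

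**Figure D3:**
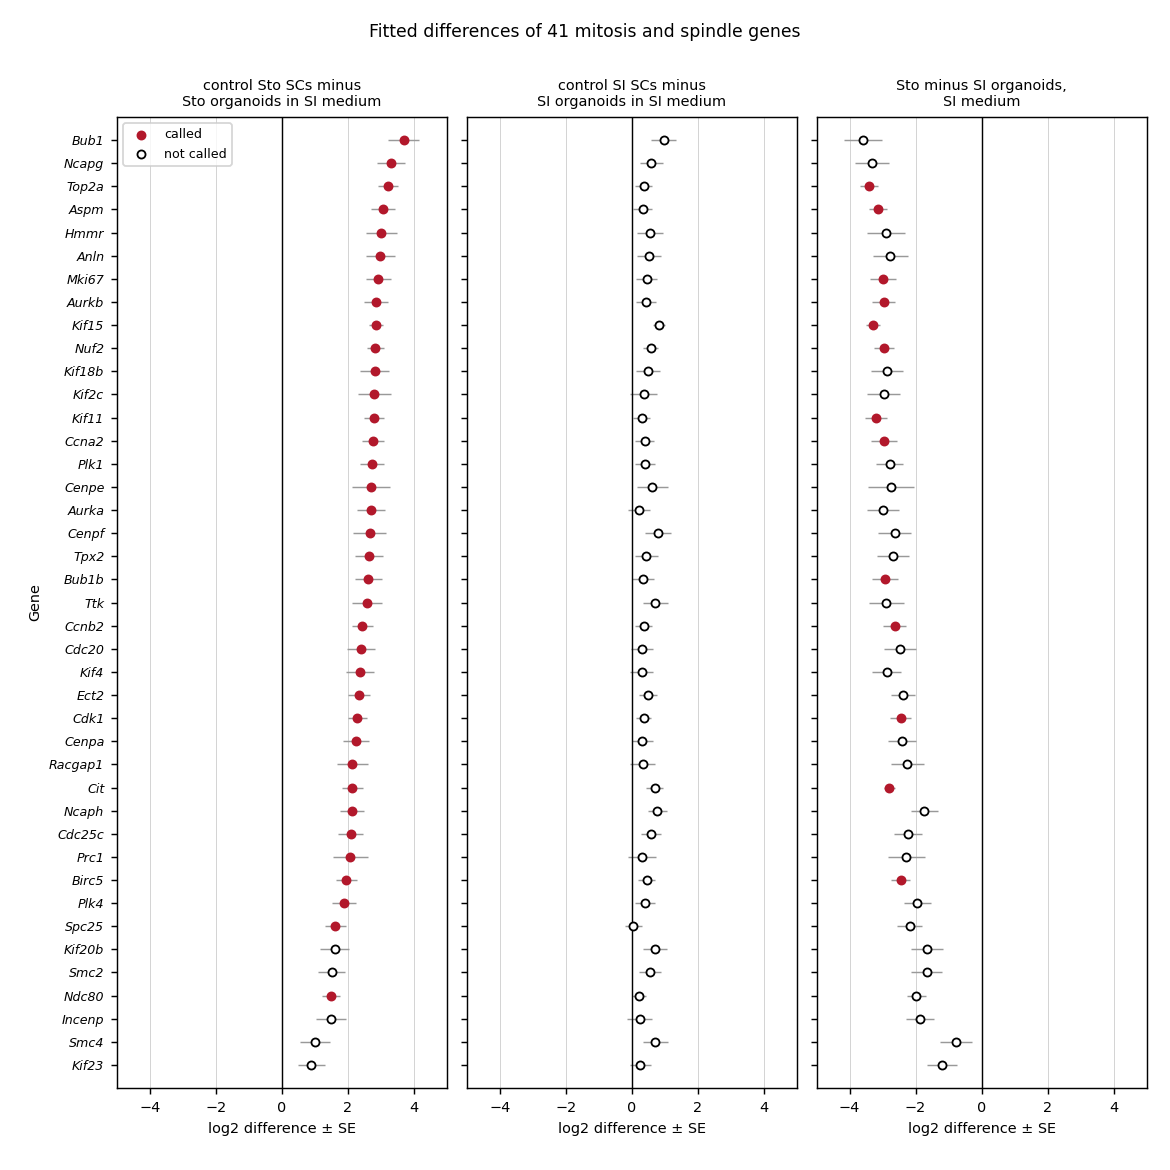
Fitted log2 difference with its standard error (horizontal axis) for each of the 41 genes (vertical axis, in the order of the left panel) in 3 comparisons. Red points passed both thresholds and open points did not. In the left panel 36 genes lie to the right of 0 and are called, in the middle panel 0 are called, and in the right panel 13 of the genes left of 0 are called.

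The difference between those 2 differences was tested in the same fit of all 14 arrays. It was above 0 for 41 of 41 genes, with a median of 2.07, and passed for 6, against 0.478% of all genes called higher. These were Top2a (2.86, SE 0.39, adjusted p = 0.0165), Kif15 (2.02, SE 0.28, adjusted p = 0.0168), Nuf2 (2.26, SE 0.35, adjusted p = 0.0246), Kif11 (2.49, SE 0.40, adjusted p = 0.0274), Aspm (2.74, SE 0.46, adjusted p = 0.0358) and Ccna2 (2.38, SE 0.44, adjusted p = 0.0479). Mki67 (2.47, adjusted p = 0.0613), Aurkb (2.43, adjusted p = 0.0613), Cdk1 (1.92, adjusted p = 0.0511) and Plk1 (2.34, adjusted p = 0.0674) were not called. The count rested on single arrays. It was 19 without SI organoids in SI medium 1 (2.88% of all genes called higher), 3 without control SI SCs 3 and 2 without SI organoids in SI medium 2. In the last 2 of these fits 46 and 43 of all genes were called higher, against 90 in the main fit. The count was 0 without control SI SCs 1, with 15 of all genes called higher. Leaving out an array of either stomach group leaves 1 in that group, so no count is given for those fits. Over all arrays left out singly, those of the stomach groups among them, the median ran from 1.64 to 2.38. With organoids in Sto medium in place of SI medium, averaged over both origins, 0 of 41 genes were called in control SCs (median 0.21, or 0.10 without control Sto SCs 2, 27 above 0, 3 at an unadjusted p under 0.05, with 0.0425% of all genes called), with 1 organoid array for each origin.

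The second comparison set the 2 origins of whole organoids against each other in SI medium, where Sto organoids were lower throughout. It shares the 2 Sto arrays with the first comparison, so the 2 are not independent. Their difference from SI organoids was below 0 for 41 of 41 genes, with a median of -2.75 and a range of -3.60 (Bub1) to -0.79 (Smc4), and 13 genes fell and 0 rose, against 0.887% of all genes called lower. Top2a had levels of 6.22 and 6.83 in Sto organoids in SI medium, against 10.17, 9.98 and 9.63 in SI organoids in SI medium, a difference of -3.40 (10.6-fold, SE 0.27, adjusted p = 0.0248). Mki67 was at 6.67 and 7.70 in Sto organoids, against 10.49, 10.30 and 9.71 in SI organoids (-2.98, SE 0.40, adjusted p = 0.0494). For both genes every Sto array lay below every array labelled SI, the library that went against its label among them.

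Besides these, Kif15 (-3.29, SE 0.21, adjusted p = 0.021), Kif11 (-3.20, SE 0.33, adjusted p = 0.0352), Aspm (-3.14, SE 0.28, adjusted p = 0.0278), Aurkb (-2.96, SE 0.35, adjusted p = 0.0416), Ccna2 (-2.95, SE 0.39, adjusted p = 0.0492) and Nuf2 (-2.95, SE 0.30, adjusted p = 0.0347) fell. So did Bub1b, the cyclin Ccnb2, Cdk1 (-2.46, SE 0.32, adjusted p = 0.0461), the survivin gene Birc5 and the cytokinesis kinase Cit, between -2.93 and -2.46. Plk1 (-2.79, SE 0.41, adjusted p = 0.0588) was among the 28 not called, as was Bub1, whose difference was the largest but whose arrays spread most (SE 0.57, adjusted p = 0.0689). At an unadjusted p under 0.05 there were 40 of 41, and 3106 of all 18820 genes.

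This count also depended on the library that went against its label. Without SI organoids in SI medium 1, 37 of 41 genes fell (6.29% of all genes called lower), the exceptions being Kif20b, Kif23, Smc2 and Smc4. Without SI organoids in SI medium 2 or 3 the count was 0, as it was for all genes. Leaving out either Sto array leaves 1 in that group, so no count is given for those fits. The count of 13 was not shown to hold in them. Over all arrays left out singly the median ran from -3.21 to -2.30. With the spread taken from all 14 arrays, an alternative added after seeing the data, the count was 39 (2.84% of all genes).

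**Figure D4:**
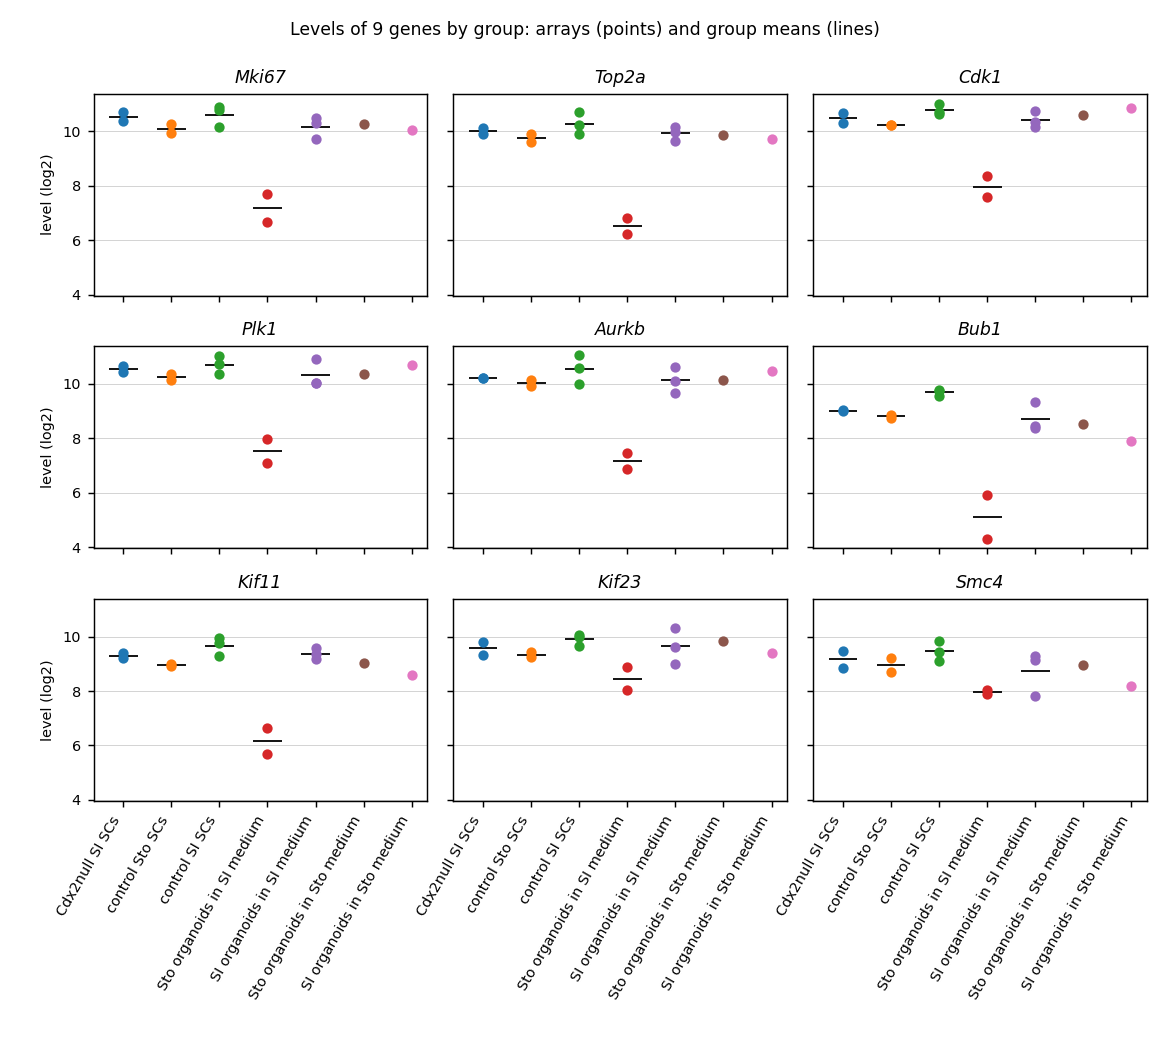
Level on the log2 scale (vertical axis) of 9 genes in the 7 sample groups (horizontal axis). Each point is an array and each short line the mean of a group with more than 1 array. In 7 of the panels the 2 arrays of Sto organoids in SI medium lie well below all others, and for Kif23 and Smc4 they lie close to the lowest of the rest.

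In Sto medium there was a single array of whole organoids for each origin, and their levels were close. Top2a was at 9.88 in the Sto array and 9.73 in the SI array, Mki67 was at 10.26 in the Sto array and 10.04 in the SI array, and the mean of the 41 genes was 8.56 in the Sto array and 8.42 in the SI array. Medium within each origin was compared after this had been seen, and those comparisons are therefore not among the planned ones. In Sto organoids, Sto medium was above SI medium for 41 of 41 genes, by a median of 2.75 and from 0.97 (Smc4) to 3.41 (Bub1). Top2a differed by 3.36 (SE 0.37, adjusted p = 0.0767), Mki67 by 3.08 (SE 0.54, adjusted p = 0.15), Aurkb by 2.95, Plk1 by 2.84 and Cdk1 by 2.65. With 1 array against 2, and its spread assumed to be that of the other organoid groups, 0 of 41 were called (38 at an unadjusted p under 0.05, with 0.106% of all genes called). The same differences were called for 31 of 41 with the spread of all 14 arrays (1.94% of all genes called higher) and for 31 without SI organoids in SI medium 1 (2.77% of all genes).

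In SI organoids, 17 genes were above 0 and 24 below 0 in Sto medium relative to SI medium, with a median of -0.19 and a range of -0.88 (Hmmr) to 0.61 (Cenpa), 0 called and 0 at an unadjusted p under 0.05, where 0% of all genes were called. The median had no settled direction, being 0.04 without SI organoids in SI medium 1 and -0.36 without SI organoids in SI medium 3. Mki67 was at 10.04 in Sto medium, against 10.49, 10.30 and 9.71 in SI medium, inside the spread of that group. The difference between the medium effects of Sto and SI organoids was above 0 for 41 of 41 genes (median 2.69, from 1.53 for Smc4 to 4.24 for Bub1). It was called for 0 (33 at an unadjusted p under 0.05, with 0.0106% of all genes called). Each Sto-medium group here is 1 array with no spread of its own. An alternative chosen after seeing the data, which borrows the spread of all 14 arrays, passed the thresholds for Kif15, Kif11, Top2a and Nuf2, against 0.101% of all genes called higher, and rests on that assumption. The planned fit, in which medium has 1 effect common to both origins, gave a median of 1.17 with 0 called (6 at an unadjusted p under 0.05, with 0% of all genes called). That median was -0.19 without the array of Sto organoids in Sto medium and 2.75 without the array of SI organoids in Sto medium.

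The third set of comparisons was among sorted stem cells, all from organoids in Sto medium, and asked whether loss of Cdx2 was accompanied by a change in these genes. No member rose or fell in Cdx2null SI SCs relative to control SI SCs, while 1.52% of all genes were called. The fitted differences were below 0 for 41 of 41 genes, with a median of -0.28 (0.03 over all genes) and a range of -0.91 to -0.07. At an unadjusted p under 0.05 there were 4 of the 41, and 2180 of all 18820 genes. Leaving out array 2 of control SI SCs gave a median of -0.14, and leaving out array 3 gave -0.42. Marker lists moved in the same comparison, with 6 of 11 enterocyte genes (median -2.48), 1 of 6 goblet genes and 2 of 5 Paneth genes called lower and 4 of 8 gastric pit and neck genes called higher in Cdx2null SI SCs, and their part in these values was not tested. The 4 with the smallest p were Bub1 (-0.67, SE 0.14, adjusted p = 0.0822), Kif15 (-0.89, SE 0.19, adjusted p = 0.0928), Cit (-0.91, SE 0.32, adjusted p = 0.312) and Ttk (-0.52, SE 0.22, adjusted p = 0.429). Bub1 was at 9.01 and 9.04 in Cdx2null SI SCs, against 9.78, 9.75 and 9.55 in control SI SCs, so its groups did not overlap. Mki67 was at 10.38 and 10.70 in Cdx2null SI SCs, against 10.77, 10.90 and 10.17 in control SI SCs (-0.07, SE 0.25, adjusted p = 0.956), and Top2a (-0.28), Cdk1 (-0.28), Plk1 (-0.16) and Aurkb (-0.33) had adjusted p between 0.649 and 0.864.

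The median of these differences was smaller than that between some arrays of a group. Control SI SCs 3 was below control SI SCs 2 for 39 of the 41 genes, by a median of 0.56, with a median of 0.16 over all genes, and control SI SCs 2 was above control SI SCs 1 for 35 of them. Among Cdx2null SI SCs, array 2 was above array 1 for 15 genes and below it for 26. These arrays differed widely in Cdx2 signal, at 8.41 on array 1 and 4.88 on array 2, and the cause was not tested.

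Control Sto SCs were compared with the same control SI SCs, so the 2 comparisons are not independent. Here 1 of 41 genes fell and 0 rose, against 0.914% of all genes called lower, with 41 of 41 below 0 and a median of -0.56 (0.03 over all genes). At an unadjusted p under 0.05 there were 24 of the 41, and 2936 of all 18820 genes. The gene was Kif15, a motor that helps keep spindles bipolar, at 7.07 and 7.44 in control Sto SCs, against 8.50, 8.75 and 8.34 in control SI SCs (2.42-fold, -1.27, SE 0.19, adjusted p = 0.018). Bub1 was at 8.75 and 8.86 in control Sto SCs, against 9.78, 9.75 and 9.55 in control SI SCs, and passed the p threshold but not the fold (-0.89, SE 0.14, adjusted p = 0.0219). Cit had a difference of -1.36 (SE 0.32, adjusted p = 0.0837), and Mki67, Top2a, Cdk1, Plk1 and Aurkb lay between -0.54 and -0.45 with adjusted p from 0.186 to 0.471. The same marker lists moved here too, with 6 enterocyte, 3 goblet and 2 Paneth genes called lower and 6 gastric pit and neck genes called higher in control Sto SCs, and their part was not tested. The call of Kif15 was lost without either array of control Sto SCs and also when control SI SCs 1 was left out. Leaving out the differently exported array 3 of control SI SCs, Cit (-1.67, SE 0.21, adjusted p = 0.0311), Kif15 (-1.37, SE 0.18, adjusted p = 0.0374) and Kif4 (-1.09, SE 0.15, adjusted p = 0.0397) fell, against 0.685% of all genes.

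Between Cdx2null SI SCs and control Sto SCs, 0 of 41 genes were called, as were 0% of all genes (286 of 18820 at an unadjusted p under 0.05). The differences were above 0 for 41 of 41, with a median of 0.33 and a range of 0.13 (Hmmr) to 0.56 (Cenpf), and 0 members were at an unadjusted p under 0.05. Mki67 differed by 0.44 (SE 0.27). Across the 3 groups of sorted cells the mean level of the 41 genes was 8.74 and 8.69 in Cdx2null SI SCs, 8.29 and 8.49 in control Sto SCs and 9.04, 9.30 and 8.71 in control SI SCs.

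Other genes of the cell cycle were read from further lists. In the comparison used for them 3.74% of all genes rose and 2.3% fell. Of 71 further mitosis genes, 47 rose in control Sto SCs relative to Sto organoids in SI medium and 0 fell, with a median of 1.99, among them Depdc1a (3.10, SE 0.53, adjusted p = 0.0084), Shcbp1 (3.04, SE 0.38, adjusted p = 0.00221), Pimreg and the scaffold Iqgap3. Of 28 DNA replication genes 19 rose and 0 fell (median 1.57), led by Uhrf1, which takes part in the upkeep of DNA methylation at the fork (3.07, SE 0.35, adjusted p = 0.00127), with the polymerase subunits Pola1 (2.61) and Pole (2.32) and the helicase subunit Mcm5 (2.48). Among 17 transcription factors and partners that regulate cell cycle genes, activators and repressors alike, 4 rose and 0 fell (median 0.50), including the repressor E2f8 (2.23, adjusted p = 0.0246) and the activator E2f1 (2.21, adjusted p = 0.00348).

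G1 cyclins and their kinases, which act before replication, stood apart from these. None of the 8 was called in this comparison, and their median was 0.07. Ccnd1, cyclin D1, was at 11.53 and 11.81 in control Sto SCs, against 11.93 and 12.18 in Sto organoids in SI medium (-0.38, adjusted p = 0.848). Of 11 cell cycle inhibitors, 3 rose in control Sto SCs and 0 fell (median -0.24), against 3.74% and 2.3% of all genes. They were the broad Cdk inhibitor Cdkn1c (2.19, adjusted p = 0.014) and the inhibitors of the G1 kinases Cdkn2c (1.62, adjusted p = 0.0234) and Cdkn2d (1.14, adjusted p = 0.0297). Housekeeping genes (11) had 0 called and a median of 0.02.

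**Figure D5:**
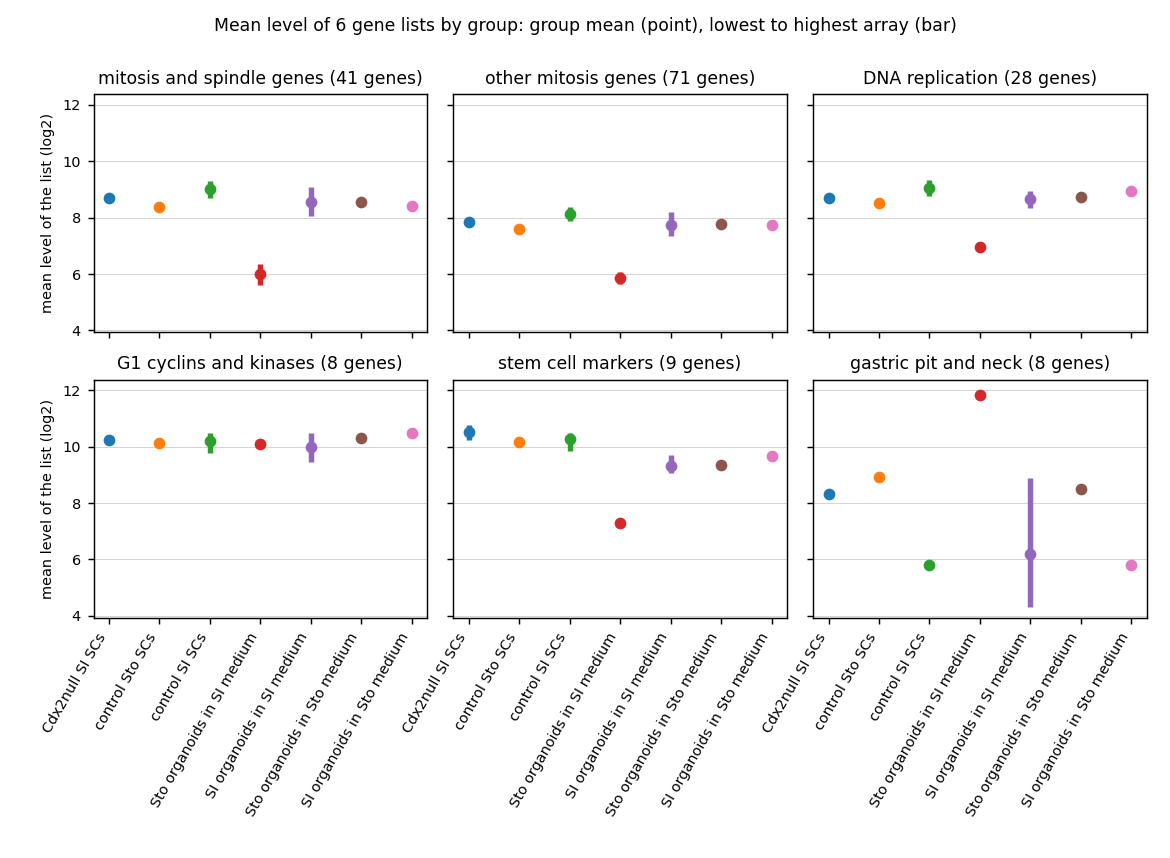
Mean log2 level (vertical axis) of 6 gene lists in the 7 sample groups (horizontal axis). Points are group means and bars run from the lowest to the highest array of a group. The mitosis, further mitosis and replication lists and the stem cell markers have their lowest point in Sto organoids in SI medium, the gastric pit and neck list its highest, and the G1 list is nearly level.

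Stem cell markers moved with the mitosis genes, while lists of differentiated cells went both ways. The mean of 9 stem cell markers was 7.31 in Sto organoids in SI medium (7.18 and 7.44 on its arrays), against 9.06 to 10.78 on every other array. Lgr5, the receptor that marks these stem cells, was at 4.20 and 4.32 there, against 9.29 in Sto organoids in Sto medium, 9.49 to 10.28 in SI organoids in SI medium and 10.77 and 11.14 in control Sto SCs. In the comparison with control Sto SCs, 6 of the 9 rose in the sorted cells and 0 fell, against 3.74% and 2.3% of all genes. Lgr5 rose by 6.70 (SE 0.32, adjusted p = 1.1e-05), Ascl2 by 4.83, Tnfrsf19 by 4.51 and Axin2 by 4.06. The sort itself used Lgr5-EGFP, so a high Lgr5 in sorted cells follows from the gate.

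The mean of 8 gastric pit and neck genes was 11.85 in Sto organoids in SI medium, against 8.92 in control Sto SCs and 8.51 in Sto organoids in Sto medium. The surface mucin gene Muc5ac stood at 12.28 and 12.03 on these 2 arrays and between 3.47 and 4.60 on the other 12, and Gkn1 and Gkn2, which surface cells secrete, were between 12.40 and 12.47 there and at or below 6.74 elsewhere. Of the 8, 4 fell in control Sto SCs relative to Sto organoids in SI medium and 0 rose, against 2.3% of all genes that fell. These were Gkn2 (-8.20), Muc5ac (-7.63), Gkn1 (-6.00) and Tff1 (-5.04). The other members did not share this. Muc6, the mucin of neck cells, was at 12.65 and 12.44 in control Sto SCs, against 5.82 and 8.15 in Sto organoids in SI medium (5.56, SE 1.98, adjusted p = 0.143). Its level on the single array of stomach organoids in Sto medium was 10.92. Tff2, Muc1 and Cldn18 had differences between -0.78 and -0.57 and were not called. The goblet list had a mean of 8.23 in Sto organoids in SI medium, against 6.16 in control Sto SCs and 6.53 in Sto organoids in Sto medium. Chief and parietal genes had a mean of 4.75 there, against 6.31 in control Sto SCs and 5.36 in Sto organoids in Sto medium. Stress genes induced by dissociation were at 9.40 to 10.26 on the sorted arrays and 7.10 to 7.97 on the organoid arrays. The part of these markers in the mitosis result was not tested.

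The members also tracked one another closely. Over the 14 arrays each gene's level was correlated with the mean of the other members at a median Pearson r of 0.98, from 0.75 (Smc4) to 0.99 (Tpx2), whereas the median r of all genes with the mean of the members was -0.04. Without the 2 arrays of Sto organoids in SI medium the median r of the members was 0.86, from 0.56 (Cit) to 0.97 (Smc2). These points share arrays, normalisation and groups of replicates. Outside all lists the 5 genes most like the mean of the members were Wdhd1, which works at the replication fork (r = 0.99), Dtl, a ubiquitin ligase adaptor (0.99), Pclaf, which binds the sliding clamp PCNA (0.99), Fignl1 (0.99) and Anp32e, a histone chaperone (0.98). Pclaf, as an example, had levels of 6.07 and 6.94 on the arrays of Sto organoids in SI medium, with 9.35 to 10.04 on the other arrays.

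Replicates of Sto organoids in SI medium differed from each other in the same genes. Array 2 was above array 1 for 40 of 41 members, by a median of 0.78, with Smc4 the exception, while the median difference of all genes was -0.02. Among SI organoids in SI medium the library labelled 1 was the highest for nearly all members: array 2 was below it for 41 of 41 genes (median -0.52) and array 3 for 40 of 41 (median -1.12, with a median of -0.18 over all genes). Its mean of 9.08 over the 41 genes was within the range of control SI SCs although its Cdx2 was not.

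Members with and without a CHR match near the start differed by similar amounts. The 27 members with a CHR match near the start had a median difference of 2.59 between control Sto SCs and Sto organoids in SI medium, with 24 of them called, and the 8 without one had a median of 2.41, with 8 called. Kif23, with both motifs, differed by 0.89, and Nuf2, with neither, by 2.83.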

How the data were processed

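RNA was hybridised to Affymetrix mouse gene arrays, 1 sample per array, and the authors deposited log2 expression values per probe set, made by RMA-sketch in Affymetrix Power Tools (version not given in the sources used here), which corrects background, normalises arrays and summarises probes. Precision is limited by how many arrays there are. Of 35556 probe sets, 21218 had a single listed gene symbol, 1881 had several and 12457 had none. Symbols were updated by Entrez ID for 21185 of the probe sets through a RefSeq table of GRCm38.p6, and 1386 genes had more than 1 probe set, of which that with the highest mean was kept. No value column lacked a sample.

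Groups followed the labels. Comparisons were fitted in limma 3.58.1 (R 4.3.3), with lmFit and eBayes, over the sorted arrays for SC comparisons, over the organoid arrays for organoid comparisons and over all 14 arrays where sorted cells and organoids were compared, and adjusted p-values were Benjamini-Hochberg values over 18820 genes. Calls needed an adjusted p under 0.05 and a fold of 2. The fit was tested on simulated data. Scripts used Python 3.11.15, pandas 2.3.3 and matplotlib 3.10.9. The members and gene lists were chosen with earlier results of these data known. Named genes were Mki67, Top2a, Cdk1, Ccnb1 (not measured), Plk1 and Aurkb, up to 8 called members with the largest difference in each direction or, with none called, the 4 with the smallest p, up to 4 called genes per direction of other lists, and the 5 genes most correlated with the members. Others were named after their values were seen.

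Alternatives were other normalisations, filters, probe set rules, variance priors, samples and thresholds, and the methods' t-test with equal variance. Same-numbered arrays of different groups, compared by their deviations from the group means, gave correlations from -0.189 to 0.404, with 8 of 21 over 0.1. For control SI SCs against SI organoids in SI medium all 3 were over 0.1. So were those of control SI SCs with control Sto SCs (0.176 and 0.404) and of Cdx2null SI SCs with control Sto SCs (0.377). Between groups of 2 arrays the values of both numbers are the same by construction. The main fits took no arrays as pairs, and the replicate number as a block was an alternative.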

Additional observations from a re-analysis of the deposited data

Results flagged for a closer look

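For 6 genes the difference between sorted SCs and whole organoids in SI medium was itself different between stomach and intestinal cultures by a test of that difference in limma. It was 2.86 on the log2 scale for Top2a, 2.74 for Aspm, 2.49 for Kif11, 2.38 for Ccna2, 2.26 for Nuf2 and 2.02 for Kif15, in each case larger in the stomach cultures. No group had 4 or more arrays, so departures of single arrays were not tested.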

How the results depend on the processing

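In all 12 comparisons the median of the 41 genes kept its direction under each alternative that left out no single replicate, from 2.29 to 2.59 for control Sto SCs against Sto organoids in SI medium and from -2.96 to -2.63 for Sto against SI organoids in SI medium. Counts of calls moved more. Of members called in Cdx2null SI SCs against control SI SCs, the count of 0 became 1 after quantile normalisation and 1 with arrays centred on their medians, while all genes called lower, 112 in the main setting, became 163 and 239. For control Sto SCs against control SI SCs the count of 1 became 4 with quantile normalisation, 5 with centred arrays, 3 with dim genes left out, 3 without the differently exported arrays, 2 with no fold threshold, 2 by the methods' t-test unadjusted and 0 after Benjamini-Hochberg, and ran from 0 to 3 when single replicates were left out. All genes called lower there were 172, then 276 with quantile normalisation, 352 with centring, 141 with dim genes left out and 129 without the differently exported arrays. They were 192 with no fold threshold, 244 by the methods' t-test unadjusted and 0 after Benjamini-Hochberg. For Sto against SI organoids in SI medium the count of 13 became 23, 30 and 22 with quantile normalisation, centring and dim genes left out (all genes called lower: 167, then 290, 280 and 211). It was 0 without the differently exported arrays and 39 with the spread of all 14 arrays (all genes called lower: 0 and 534). By the methods' t-test it was 36 unadjusted and 0 adjusted (all genes called lower: 505 and 0). Without single SI organoid arrays it ran from 0 to 37 (all genes called lower: 0 to 1184).

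For control Sto SCs against Sto organoids in SI medium the count of 36 became 0 by the methods' t-test after Benjamini-Hochberg (34 unadjusted) and ran from 19 to 32 without single replicates, with the median from 2.09 to 2.88. For control SI SCs against SI organoids in SI medium it ran from 0 to 2, with the median from 0.19 to 0.70. For the difference between those comparisons the count of 6 became 15 with quantile normalisation, 14 with centring, 11 with dim genes left out, 3 with only the groups compared and 2 without the differently exported arrays. All genes called higher there were 90, then 139, 107, 92, 53 and 23. Without single SI arrays the count ran from 0 to 19, with 15 to 542 of all genes called higher. For Sto against SI medium in Sto organoids, a comparison chosen after seeing the data, the count of 0 became 1 with quantile normalisation, 3 with centring, 31 without the library labelled SI organoids in SI medium 1 and 31 with the spread of all 14 arrays. The difference of medium effects, chosen likewise, had 4 with that spread and from 0 to 3 without single replicates. Without single arrays the median ran from -0.36 to 0.04 for medium in SI organoids, from -0.42 to -0.14 for Cdx2null SI SCs against control SI SCs, from 0.10 to 0.28 for control SCs against organoids in Sto medium, and from -0.19 to 2.75 for the common medium effect.

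Mki67 in Cdx2null SI SCs against control SI SCs (-0.07) ran from -0.30 to 0.09 without single replicates, and was 0.0043, 0.0891 and 0.0673 without control SI SCs 1, Cdx2null SI SCs 1 and control SI SCs 2. With the replicate number as a block, control Sto SCs against control SI SCs had 3 members called, with 500 of all genes called. Sto against SI organoids in SI medium had 0 members called with the block, and 0 of all genes. The block left the count at 0 for control SI SCs against SI organoids in SI medium, with 51 of all genes called. Among named genes under the alternatives, 634 values kept their status, whether called or not called, 47 gained a call, 127 lost one and 3 changed sign. The cause of these changes was not tested. Comparisons in Sto medium could not be fitted without a lone organoid array, and no t-test was run where a group had 1 array.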
